A study of Arabidopsis thaliana with 30 samples.

Results

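The 3 Arabidopsis loci that encode miR319 (MIR319a, AT4G23713; MIR319b, AT5G41663; MIR319c, AT2G40805) and the 5 TCP transcription factor genes targeted by this miRNA (TCP2, AT4G18390; TCP3, AT1G53230; TCP4, AT3G15030; TCP10, AT2G31070; TCP24, AT1G30210) were followed in the RNA of leaves of plants with a mutation in the nuclear RNA helicase HEN2, in the miRNA biogenesis factor SERRATE (SE), or in both. The 8 genes were found by their identifiers. All 8 were found among 34262 genes in a first experiment (RNA-seq 1) and among 32832 genes in a second one (RNA-seq 2). RNA-seq 1 compared WT Col-0 plants with hen2-2 plants, which carry a T-DNA insertion (GK774_H07), both grown at 22 °C. RNA-seq 2 was done with WT, hen2-2, se-2 (insertion SAIL_44_G12, which truncates SE at its C-terminus) and the se-2 hen2-2 double mutant obtained by crossing, all grown at 20 °C. All plants were 4 weeks old and grown in long days, and each genotype had 3 biological replicates. Each mutation was represented by a single insertion line. The RNA was depleted of ribosomal RNA, so that transcripts without a poly(A) tail were also read. Small RNA libraries of the same study, which would hold mature miR319, were not analysed here.

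A miRNA of plants is cut from a hairpin in a long primary transcript (pri-miRNA) by DCL1, which works together with HYL1 and SE. HEN2 is the helicase of the NEXT complex, which hands nuclear transcripts to the RNA exosome for degradation. miR319 guides the cleavage of TCP mRNAs of the CINCINNATA (CIN) class, whose proteins end cell division and start differentiation in growing leaves. Plants with too much miR319 are known for crinkled leaves.

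The mature sequences are shown because they decide which mRNAs can be recognized. They were read from the annotation of the TAIR10.1 assembly by RefSeq, which has the nuclear chromosomes of TAIR10, the build used by the authors. Each is given 5′ to 3′ with its seed, bases 2 to 8, in capitals.
miR319a (chr4:12353109-12353129, + strand): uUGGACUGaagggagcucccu
miR319b (chr5:16660469-16660489, - strand): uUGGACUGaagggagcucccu
miR319c (chr2:17029870-17029890, + strand): uUGGACUGaagggagcuccuu
The first 2 were identical over all 21 bases, and miR319c differed from them by C20U, counted from the 5′ end. All 3 shared their seed. In each locus the mature sequence lay in the 3′ arm of the hairpin. The hairpin of MIR319c, the locus with the clearest difference between genotypes, covers 199 bases on chromosome 2 (chr2:17029701-17029899, + strand) and is printed with the mature sequence in capitals.
MIR319c hairpin: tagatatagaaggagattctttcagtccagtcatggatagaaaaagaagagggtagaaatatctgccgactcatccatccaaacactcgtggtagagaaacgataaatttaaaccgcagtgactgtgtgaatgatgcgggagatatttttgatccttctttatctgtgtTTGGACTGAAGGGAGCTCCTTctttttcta
No annotated gene overlapped any of the 3 hairpins, and the nearest neighbour, 1059 bases from MIR319c, was AT2G09195 on the same strand.

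The best match to miR319a in the coding sequence of each target is shown to let the 5 sites be compared. They are printed 5′ to 3′ as RNA, in lower case where the base pairs with miR319a and in capitals where it forms a G:U pair or no pair.
TCP2 site (chr4:10163402-10163422, - strand): CAggGgGAcccuucaguccaa
TCP3 site (chr1:19850522-19850542, - strand): GAggGgUCcccuucaguccaU
TCP4 site (chr3:5063300-5063320, + strand): GAggGgUCcccuucaguccaG
TCP10 site (chr2:13221210-13221230, - strand): aAggGgUAcccuucaguccaG
TCP24 site (chr1:10628989-10629009, - strand): UAggGgGAcccuucaguccaa
TCP17 best match (chr5:2585388-2585408, + strand): UAgCagcucUUAucaCuAcaa
Each of the 5 sites lay within a single coding exon. All 5 paired fully with the seed and shared a run of 12 bases (cccuucagucca). They held 15 or 16 Watson-Crick pairs of 21, with 1 to 4 G:U pairs and 2 to 4 mismatches. The CIN genes that miR319 is not known to target, TCP5, TCP13 and TCP17, had 12 or 13 pairs and 6 to 8 mismatches in their best match, and 1 to 3 of their seed bases had no Watson-Crick pair. With a mismatch counted as 1 and a G:U pair as 0.5, a site as good as the weakest of the 5 was present in 53 of 27437 coding sequences (0.193%), among them MYB33 and MYB65, targets of the related miR159. A match of this kind is a description of the sequence and not a measured cleavage.

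The libraries of RNA-seq 1 held 62.58 to 105.5 M estimated reads (M, megareads), and all 3 of hen2-2 were larger than all 3 of WT. In RNA-seq 2 the deposited counts summed to 47.75 to 156.6 M per library, and all libraries of replicate 1, as well as replicate 2 of WT and hen2-2, exceeded 100 M. Chloroplast genes took 77.62 to 81.48% of reads in RNA-seq 1 and 50.59 to 72.23% of counts in RNA-seq 2. Levels are given as reads or counts per 1000000 (CPM) on library sizes normalized by edgeR's TMM method. The mutated genes followed the labels. HEN2 stood at 7.29 to 8.82 CPM in WT and 2.57 to 3.17 CPM in hen2-2 in RNA-seq 1, and at 6.28 to 8.11 CPM in WT, 2.30 to 2.94 in hen2-2 and 2.29 to 4.36 in the double mutant in RNA-seq 2. SE stood at 5.59 to 6.84 CPM in WT, 2.45 to 3.07 in se-2 and 2.61 to 3.26 in the double mutant. The leaf genes RBCS1A, RBCS3B and CAB1 summed to 1959.98 to 3811.47 CPM in every library of both experiments, while 9 marker genes of flowers and meristems summed to at most 4.71 CPM in RNA-seq 1 and 1.35 CPM in RNA-seq 2.

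The first question was how strongly the loci and their targets are expressed. Per length, in transcripts per 1000000 (TPM) of RNA-seq 1, the targets stood far above the precursors. TCP3 had 2.38 ± 1.34 TPM (SD, n = 3) in WT, TCP2 2.35 ± 0.615, TCP24 2.04 ± 0.564, TCP10 1.41 ± 0.295 and TCP4 0.548 ± 0.243. The ranges of TCP3, TCP2 and TCP24 overlapped each other, TCP10 overlapped with TCP3 and TCP24, and every WT library of TCP4 was below every WT library of the other 4 targets. The precursors followed with 0.0670 ± 0.0313 TPM for MIR319b, 0.0171 ± 0.0062 for MIR319c and 0.0128 ± 0.0010 for MIR319a. MIR319b was above MIR319c in 3 of 3 WT libraries, while MIR319c and MIR319a overlapped. In hen2-2 the means of the targets had a similar order (TCP2 2.09 ± 0.323, TCP3 2.04 ± 1.04, TCP24 1.93 ± 0.434, TCP10 1.12 ± 0.369 and TCP4 0.528 ± 0.249 TPM). Among the precursors MIR319c now had the highest mean, 0.0770 ± 0.0127 TPM, next to 0.0635 ± 0.0163 for MIR319b and 0.0409 ± 0.0212 for MIR319a. MIR319b was still above MIR319c in 2 of the 3 hen2-2 libraries, so the order of the 2 was not settled. All reads fell on the entries for the pri-miRNAs (2476, 873 and 2868 nt for MIR319a, MIR319b and MIR319c), and the short entries for the hairpins alone (176, 172 and 199 nt) were listed at 0 in all 6 libraries. As each hairpin is part of its pri-miRNA, the authors' software had to assign shared reads, so these zeros do not measure hairpin RNA.

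**Figure D1:**
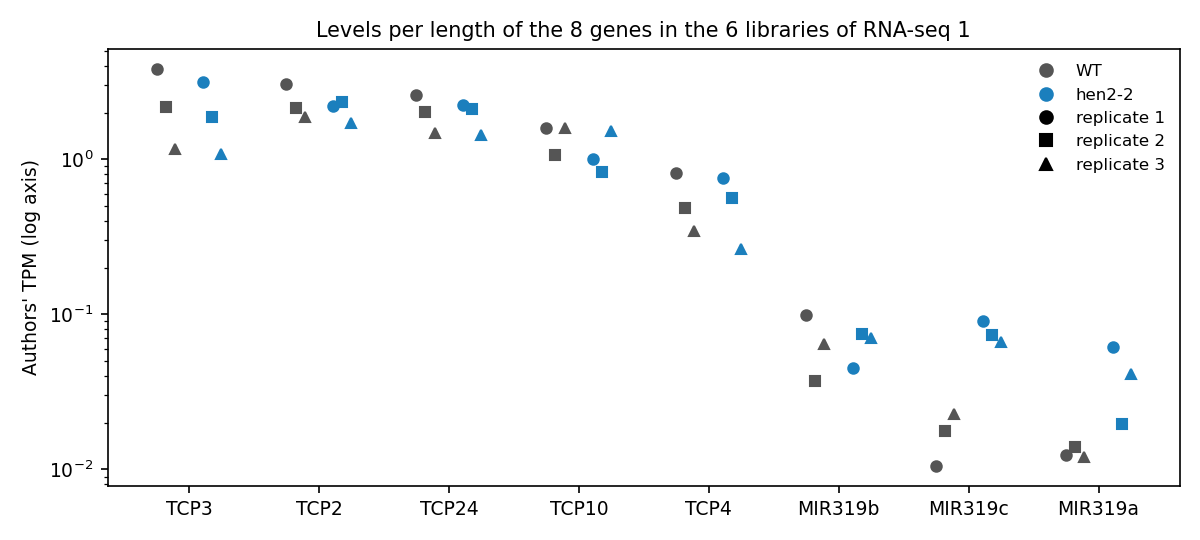
Level per length (the authors' TPM, log axis) of the 5 TCP targets and 3 MIR319 loci in each library of RNA-seq 1, with WT in grey and hen2-2 in blue and a symbol for each replicate number. The MIR319c libraries of hen2-2 (0.0660 to 0.0910 TPM) sit above those of WT (0.0105 to 0.0229 TPM), whereas the 2 genotypes overlap for every TCP gene.

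In RNA-seq 1 the loss of HEN2 went with more reads on the pri-miRNA entry of MIR319c, and none of the targets passed the test. Such reads can come from whole pri-miRNAs or from pieces left by their processing, and these values do not separate the 2. At selected miRNA loci the authors describe a mixture of both in hen2 plants. MIR319c had 4, 6 and 9 reads in the WT replicates and 50, 40 and 45 reads in the hen2-2 replicates. All 3 hen2-2 libraries were above all WT libraries, as were 11.2% of all genes tested, and their exact 95% counting intervals (Clopper-Pearson) did not meet: the highest bound in WT was 0.240 reads per 1000000 of the library (RPM) and the lowest in hen2-2 was 0.311 RPM. Such intervals cover counting error only. The level rose from 0.0903 ± 0.0447 CPM in WT to 0.455 ± 0.0416 CPM in hen2-2 (SD, n = 3). The log2 fold change was 2.36 ± 0.39 (SE; edgeR quasi-likelihood F test, two-sided, adjusted p = 0.0458 over 19506 genes). MIR319c was the only 1 of the 6 members tested that passed, in a comparison in which 1.35% of all genes passed, 1.1% higher and 0.251% lower. It met the fit's filter for low counts only through its hen2-2 libraries, where it was high. MIR319a and MIR319b did not meet that filter, so being the only precursor called is not support of its own. The call is close to the threshold and was lost in 5 of 6 fits with a library left out, with an adjusted p of 0.115 without WT replicate 1, 0.186 without WT replicate 2, and 0.14, 0.209 and 0.10 without hen2-2 replicates 1, 2 and 3. It was kept only without WT replicate 3 (adjusted p = 0.0409), while the log2 fold change stayed between 2.00 and 2.74. Most of the fits that lost it called few genes of any kind, where all libraries gave 214 higher and 49 lower. They called 0 without WT replicate 1, WT replicate 2 or hen2-2 replicate 2, and 1 higher and 1 lower without hen2-2 replicate 1. These losses say little about MIR319c itself. The fit without hen2-2 replicate 3 also lost MIR319c, but called 102 genes higher and 16 lower. Without WT replicate 3, where MIR319c was kept, 191 were higher and 77 lower. The call was also lost on the TPM values (limma, adjusted p = 0.0770 with a pseudocount of 1).

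MIR319a had 4, 4 and 4 reads in WT and 29, 9 and 24 reads in hen2-2, and its libraries did not overlap either, beside the same share of 11.2% over all genes tested. It had too few reads for the filter of the fit across genes. Its mean level was 0.0552 CPM in WT and 0.204 CPM in hen2-2, a ratio of 3.69 (exact permutation test, two-sided, p = 0.1, the smallest that 3 against 3 libraries allow; adjusted p = 0.15 over the 3 loci). Replicate 2 of hen2-2, with 0.0986 RPM (95% interval 0.0451 to 0.187), overlapped the counting intervals of WT. MIR319b, also under the filter, had 9, 3 and 6 reads in WT and 6, 10 and 12 in hen2-2, with a ratio of 1.20 (exact permutation test, p = 0.5, adjusted p = 0.5). Its genotypes overlapped. The 3 loci together held 17, 13 and 19 reads in WT and 85, 59 and 81 in hen2-2, and MIR319c made up 55.6 to 67.8% of these reads in hen2-2 and 23.5 to 47.4% in WT. Sums over marker genes, which were not tested, also differed between the same libraries, and none of the single marker genes in these lists was called. The flower and meristem markers summed to 2.66 to 4.71 CPM in WT and 1.66 to 2.29 CPM in hen2-2, and 5 cell division genes to 5.55 to 7.16 and 7.72 to 8.49 CPM, respectively. In bulk RNA, more cells of a type and more RNA per cell cannot be told apart, and the part of cell composition in the MIR319c difference was not tested, nor was that of the larger hen2-2 libraries.

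**Figure D2:**
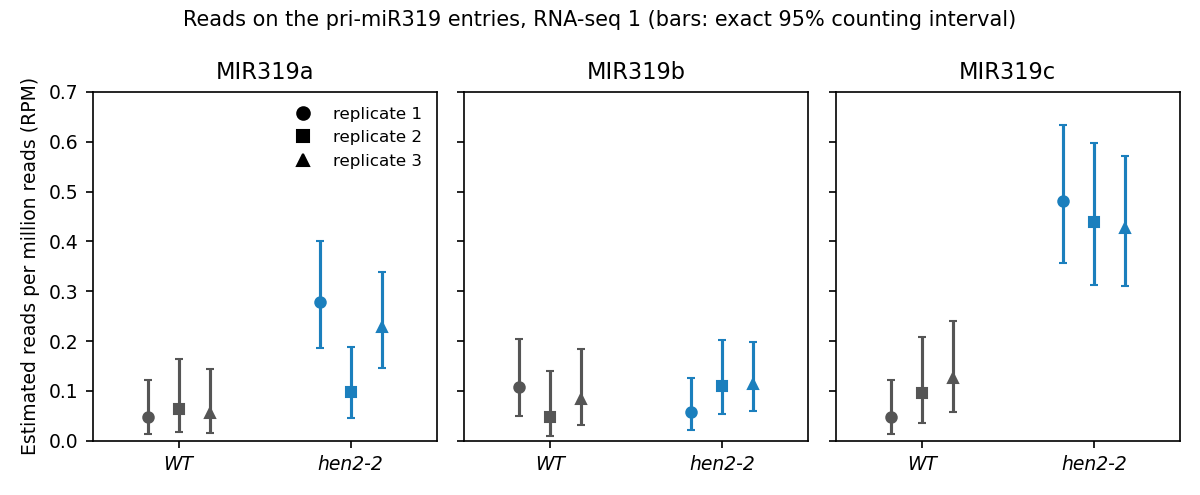
Reads per 1000000 reads (RPM) on the pri-miRNA entries of MIR319a, MIR319b and MIR319c in the WT and hen2-2 libraries of RNA-seq 1, with exact 95% counting intervals as bars. All 3 hen2-2 libraries of MIR319c (0.427 to 0.481 RPM) lie above the WT libraries (0.0476 to 0.126 RPM), and MIR319b overlaps between genotypes.

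The 5 targets had log2 fold changes between -0.09 and 0.23 in hen2-2 of RNA-seq 1, with a median of 0.15 where the median of all genes tested was 0.02, and none passed the test (smallest adjusted p = 0.737). TCP4, the best studied of the CIN class, had 233, 118 and 98 reads in WT and 303, 235 and 136 in hen2-2. The log2 fold change was 0.23 ± 0.37 (SE, adjusted p = 0.854). TCP3 had 861, 417 and 274 reads against 1059, 625 and 452, with a log2 fold change of 0.11 ± 0.41 (adjusted p = 0.946). For both, replicate 1 was the highest and replicate 3 the lowest in both genotypes, so that the spread between replicates was larger than that between genotypes. TCP2 (0.15 ± 0.15), TCP10 (-0.09 ± 0.31) and TCP24 (0.19 ± 0.18) also overlapped between genotypes. TCP3 shares its locus with an antisense gene, AT1G53233, which had 9 to 54 reads per library in RNA-seq 1 and 0 to 36 counts in RNA-seq 2. The library kit kept the strand, but whether the counting used it is not given in the sources used here.

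The use of annotated transcripts could be described for the 4 targets that have more than 1. The shorter transcript of TCP2 (AT4G18390.2, 1569 nt) took 25.2, 21 and 24.6% of the gene's reads in WT and 8.79, 16.7 and 0.798% in hen2-2, without overlap. Over 16601 transcripts of genes with at least 100 reads in every library, 6.95% had a share that was lower in all hen2-2 libraries and 8.08% a share that was higher. The shorter transcript of TCP3 (AT1G53230.2, 1176 nt) had 26.6, 40.3 and 4.15 estimated reads in WT and was listed at 0 in the 3 hen2-2 libraries. The main transcript of TCP4 (AT3G15030.4) took 45.8 to 86.2% in WT and 26.2 to 54.9% in hen2-2, with overlap. The transcripts of TCP24 were used about equally, with 42.3 to 55.0% of reads on the longer one in every library. These shares are estimates by the authors' software for transcripts that overlap almost entirely, and they come without an error.

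RNA-seq 2 asked the same of hen2-2 at 20 °C and added se-2 and the double mutant. All 8 members passed the filter there, and none passed the test in any of the 6 comparisons. The share of all genes that passed, in either direction, was 0.308% for hen2-2 against WT, 0.324% for se-2 against WT, 2.38% for the double mutant against WT, 0.884% for the double mutant against se-2, 0.529% for the double mutant against hen2-2 and 0.0154% for the interaction of both mutations. The smallest adjusted p among the members was 0.321, and at an unadjusted p under 0.05 the only member was MIR319c, in the double mutant against se-2 and in the interaction. DESeq2 also called 0 members in these comparisons. Comparisons that share WT or a mutant share its libraries and are not independent of each other.

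The precursors were close to the limit of detection. The counts of this table were computed from coverage, and 4 was the most frequent count above 0 in all 12 libraries, so that 12 counts, or 3 steps of 4, were taken as the floor. Of the 36 values for the 3 loci, 10 were 0, 16 were between 1 and the floor, and 10 were above it. MIR319c had 4, 8 and 6 counts in WT, 0, 0 and 8 in hen2-2 and 0, 0 and 0 in se-2, with 0, 27 and 36 in the double mutant. Only 2 libraries of the double mutant were above the floor. The mean of the double mutant, 0.404 ± 0.351 CPM (SD, n = 3), was 2.66 times the floor averaged over the se-2 libraries. As 1 double mutant library was itself at 0, this ratio is not a lower bound for the difference. The libraries overlapped at 0 and the difference did not pass the test (edgeR, adjusted p = 0.321). Every WT library was above the 0 of se-2, as 6.5% of all genes were lower in se-2 without overlap, but no fold is given between WT and se-2 or hen2-2, since all of these libraries were under the floor. The higher level of MIR319c in hen2-2 at 22 °C was thus not seen in hen2-2 at 20 °C. There the floor stood at 0.0899, 0.0781 and 0.229 CPM in replicates 1, 2 and 3. These floors were under the 0.414 to 0.497 CPM of hen2-2 at 22 °C, so a level of that size would have been above them. The difference between the experiments was not tested, as they differed in temperature, in the program that made the counts and in the table they came from.

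MIR319b had 6, 4 and 0 counts in WT, 15, 15 and 11 in hen2-2 and 0, 0 and 8 in se-2, with 10, 15 and 7 in the double mutant. Both genotypes with hen2-2 were above WT in all libraries, as were 7.06% of all genes in hen2-2 and 11.2% in the double mutant. All WT counts, and 11 counts in hen2-2 and 10 and 7 in the double mutant, were however under the floor, so no fold is given, and neither difference passed the test (adjusted p = 1 and 0.559). MIR319a had 0, 10 and 13 counts in WT, 4, 30 and 12 in hen2-2 and 3, 4 and 44 in se-2, with 4, 17 and 41 in the double mutant. It overlapped between all genotypes. Replicate 1 was under the floor in each genotype, with at most 4 counts.

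**Figure D3:**
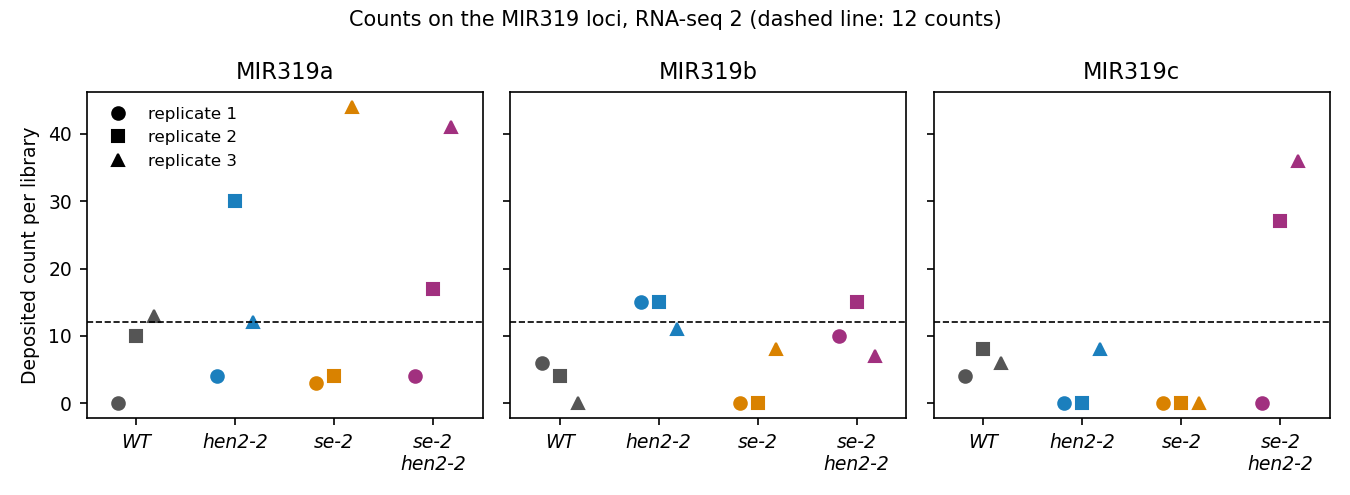
Deposited counts per library on the MIR319a, MIR319b and MIR319c loci in the 4 genotypes of RNA-seq 2, with a symbol for each replicate number and a dashed line at the floor of 12 counts. Most points lie at or under the line, and the highest values of MIR319c (27 and 36 counts) belong to 2 libraries of the double mutant.

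Among the targets in RNA-seq 2, TCP24 varied least. It had 5.36, 6.61 and 6.25 CPM in the WT replicates, 7.35, 7.23 and 7.44 in hen2-2 and 6.54, 6.97 and 9.87 in se-2, with 7.62, 7.85 and 7.77 in the double mutant. All libraries of hen2-2 and of the double mutant were above all WT libraries, as for 7.06 and 11.2% of all genes. Those of the double mutant were also above those of hen2-2, as for 7.96% of all genes. The log2 fold changes against WT were 0.27 ± 0.18 in hen2-2 (adjusted p = 1), 0.36 ± 0.18 in se-2 (adjusted p = 0.746) and 0.35 ± 0.18 in the double mutant (adjusted p = 0.391). None of these passed the test. The leaf genes named above summed to 2771.84 to 3781.75 CPM in WT and 1975.39 to 2298.91 CPM in the double mutant, and whether this bears on the values of the double mutant was not tested.

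TCP4 had the fewest counts of the targets, with 90, 151 and 44 counts in WT, 172, 154 and 10 in hen2-2 and 201, 111 and 64 in se-2, with 120, 15 and 34 in the double mutant. In CPM these were 0.893, 1.15 and 0.716 in WT, 1.29, 1.0 and 0.191 in hen2-2 and 1.45, 1.72 and 0.978 in se-2, with 0.965, 0.319 and 0.602 in the double mutant. Every double mutant library was below every se-2 library, as for 7.27% of all genes. The log2 fold change of the double mutant was -1.12 ± 0.60 against se-2 (adjusted p = 0.556), -0.53 ± 0.60 against WT (adjusted p = 0.765) and -0.40 ± 0.60 against hen2-2 (adjusted p = 0.903). Its value in se-2 was 0.59 ± 0.59 against WT (adjusted p = 0.982), and the interaction was not called (log2 -0.98 ± 0.84, adjusted p = 1).

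TCP2 and TCP10 had their highest means in both genotypes with se-2, but their libraries overlapped with WT. TCP2 had 5.21, 8.31 and 10.6 CPM in WT, 7.50, 8.92 and 9.86 in hen2-2 and 8.21, 16.3 and 10.6 in se-2, with 6.45, 11.9 and 13.3 in the double mutant. Its log2 fold changes against WT were 0.13 ± 0.33 in hen2-2, 0.54 ± 0.33 in se-2 and 0.40 ± 0.33 in the double mutant. TCP10 had 2.90, 4.41 and 6.14 CPM in WT, 3.98, 4.98 and 4.13 in hen2-2 and 4.01, 6.63 and 5.66 in se-2, with 4.06, 7.44 and 6.44 in the double mutant. The log2 fold changes were -0.04 ± 0.30, 0.28 ± 0.30 and 0.42 ± 0.30 in hen2-2, se-2 and the double mutant. TCP3 had 5.22, 1.62 and 2.62 CPM in WT, 5.75, 2.07 and 3.67 in hen2-2 and 5.90, 3.65 and 2.61 in se-2, with 4.95, 2.30 and 2.50 in the double mutant, with log2 fold changes against WT of 0.28 ± 0.50, 0.37 ± 0.50 and 0.05 ± 0.50. The smallest adjusted p of these 3 genes against WT was 0.599. In se-2 all 5 targets had a fitted change above 0 (0.28 to 0.59, median 0.37 beside 0.00 over all genes), in the double mutant 4 of 5 (median 0.35 beside 0.01) and in hen2-2 3 of 5 (median 0.13 beside 0.00). Such shifts were not particular to the targets. In the same order, TCP5, TCP13 and TCP17 had medians of 0.41, 0.28 and 0.11, with 2, 2 and 3 of 3 above 0. The 10 class I TCP genes tested, from another branch of the family, had medians of 0.25, 0.53 and 0.27, with 6, 10 and 8 above 0. Between the double mutant and se-2 the log2 fold changes of TCP2, TCP3, TCP10 and TCP24 were -0.14, -0.32, 0.14 and -0.01, and between the double mutant and hen2-2 they were 0.27, -0.23, 0.45 and 0.08.

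**Figure D4:**
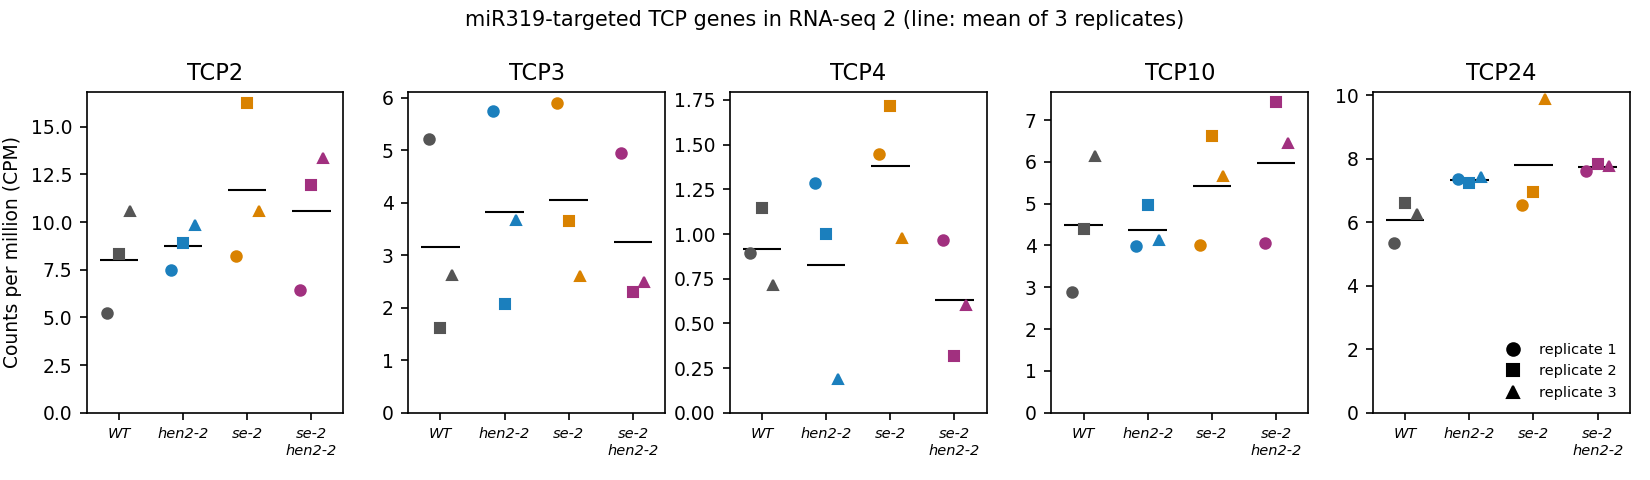
Counts per 1000000 (CPM) of the 5 miR319-targeted TCP genes in the 12 libraries of RNA-seq 2, with a symbol for each replicate number and a line at the mean of each genotype. TCP3 is highest in replicate 1 of each genotype (4.95 to 5.90 CPM), and the points of 2 genotypes are fully apart only for TCP24 (WT below hen2-2 and the double mutant, hen2-2 below the double mutant) and for TCP4 (the double mutant below se-2).

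Several members differed by replicate number in the same way in each genotype. In RNA-seq 2 TCP3 stood at 4.95 to 5.90 CPM in the 4 libraries of replicate 1 and at 1.62 to 3.67 CPM in the 8 others, a ratio of means of 2.07, and replicate 1 was the highest in each genotype. The opposite held for TCP2 (5.21 to 8.21 against 8.31 to 16.3 CPM, ratio 0.610) and TCP10 (2.90 to 4.06 against 4.13 to 7.44 CPM, ratio 0.652), whose replicate 1 was the lowest in each genotype. Of all 19454 genes tested, 12.2% were highest and 9.92% lowest in replicate 1 of all 4 genotypes. TCP4 and TCP24 followed neither pattern, and the precursors were too low to be ordered. The replicate 1 libraries all summed to more than 100 M counts, and what else they had in common is not given in the sources used here. Its part in these differences was not tested.

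**Figure D5:**
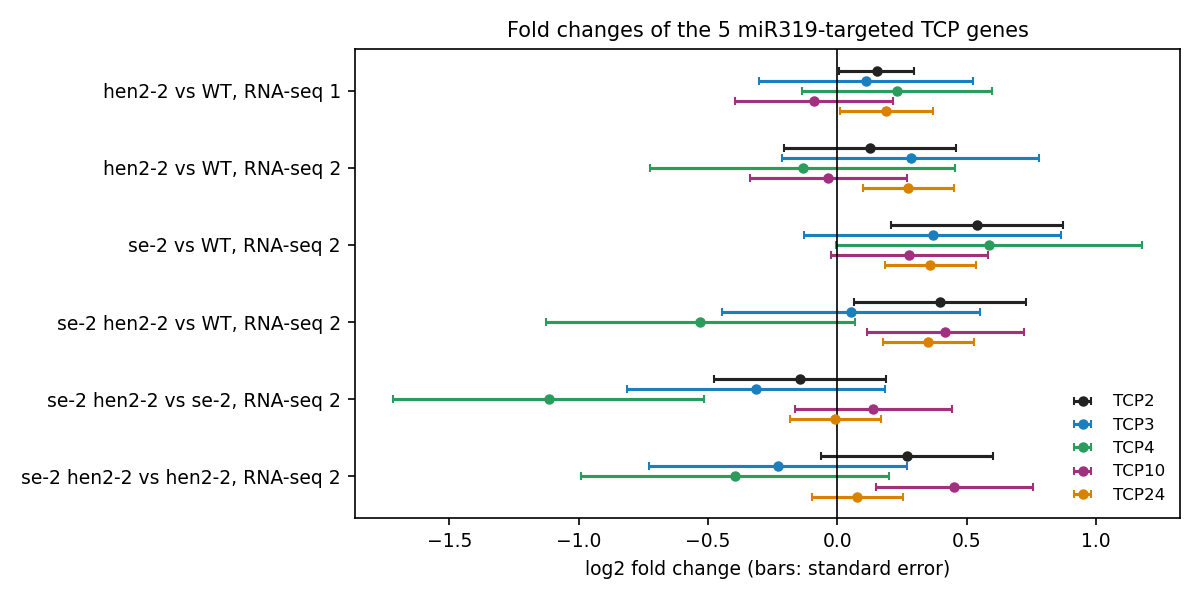
Log2 fold change (points) and standard error (bars) of the 5 miR319-targeted TCP genes in the comparison of RNA-seq 1 and the 5 comparisons between genotypes of RNA-seq 2. No gene passed the test in any of them, and the value farthest from 0 is that of TCP4 in the double mutant against se-2 (-1.12 ± 0.60).

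The CIN genes without a miR319 site were examined beside the targets. TCP13 had 3.43, 3.63 and 6.27 CPM in WT and 2.59, 2.47 and 3.40 in hen2-2 of RNA-seq 1, without overlap but without a call (log2 -0.66 ± 0.27, adjusted p = 0.366). Lower libraries without overlap were seen for 8.64% of all genes there. In RNA-seq 2 its log2 fold change in hen2-2 was 0.43 ± 0.30 (adjusted p = 1). TCP5 overlapped between genotypes in each comparison (log2 0.05 ± 0.23 in hen2-2 of RNA-seq 1, and 0.11 ± 0.65, 1.26 ± 0.66 and 0.28 ± 0.66 against WT in hen2-2, se-2 and the double mutant of RNA-seq 2). TCP17 had 35, 24 and 29 reads in WT and 29, 20 and 34 in hen2-2 of RNA-seq 1. In CPM it was lower in hen2-2 (0.288, 0.228 and 0.313) than in WT (0.396, 0.363 and 0.434) without overlap, as was TCP13, and did not pass the test (log2 -0.52 ± 0.24, adjusted p = 0.437). In RNA-seq 2 it had 45, 32 and 32 counts in WT, 32, 31 and 41 in hen2-2 and 17, 56 and 8 in se-2, with 4, 5 and 4 in the double mutant. All libraries of the double mutant were under the floor of 12 counts and below every library of WT, hen2-2 and se-2 in CPM, as were 9.82, 7.86 and 7.27% of all genes in these comparisons. The fitted log2 fold changes were -2.56 ± 1.02 against WT (adjusted p = 0.263), -2.56 ± 1.02 against hen2-2 (adjusted p = 0.406) and -2.43 ± 1.02 against se-2 (adjusted p = 0.401), so none of them passed.

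Of 13 class I TCP genes, which encode the other large branch of the family, 10 were tested in each experiment and 1 passed in a single comparison. TCP7 (AT5G23280) was higher in the double mutant (10.2, 11.6 and 10.0 CPM) than in WT (6.06, 6.51 and 7.05 CPM), with a log2 fold change of 0.70 ± 0.15 (adjusted p = 0.0321). This call was lost without any 1 of the 6 libraries (adjusted p 0.0541 to 0.133), in a fit to these 2 genotypes alone (0.122) and without the filter (0.0506), while the log2 fold change stayed between 0.63 and 0.73. Of the 3 CYC/TB1 genes, the branching and flower symmetry class, TCP1 and TCP12 were tested and neither passed in any comparison, while BRC1 had too few counts.

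Of 11 genes known to act downstream of CIN TCP proteins, 6 were tested in RNA-seq 1 and 7 in RNA-seq 2. MIR396b, the precursor of a miRNA that restrains leaf growth by targeting GRF transcription factors, was the only 1 called. It had 2, 5 and 1 counts in WT, 3, 17 and 3 in hen2-2 and 44, 29 and 43 in se-2, with 200, 94 and 133 in the double mutant. The levels in se-2 (0.318 to 0.657 CPM) and in the double mutant (1.61 to 2.35 CPM) were above those of WT (0.0163 to 0.0379 CPM) without overlap, as for 6.36 and 11.2% of all genes. MIR396b rose in the double mutant against WT (log2 6.19 ± 0.71, adjusted p = 0.00103) and against hen2-2 (4.91 ± 0.65, adjusted p = 0.0084), in a share of 1.71 and 0.38% of genes called higher, and both calls held with each library left out. Against WT it also rose in se-2 (4.12 ± 0.67, adjusted p = 0.0252, 0.267% of genes called higher), a call that was lost without any library except se-2 replicate 1 (adjusted p 0.0738 to 0.141 without the others) and in a fit to these 2 genotypes alone (0.240). The double mutant was also above se-2 in all libraries, as were 8.55% of all genes, without passing the test (2.07 ± 0.56, adjusted p = 0.145). In WT all its counts were under the floor, so the fitted folds are not bounds. It met the filter for low counts through libraries of se-2 and the double mutant, where it was high. MIR396b makes a pri-miRNA, a class that the authors report as higher in the double mutant than in either single mutant. Whether TCP proteins had a part in its rise was not tested. In RNA-seq 1 MIR396b had 8, 4 and 2 reads in WT and 9, 6 and 10 in hen2-2, too few for the test. No other downstream gene was called, and the list had medians of 0.34 in RNA-seq 1 (0.02 over all genes) and 0.50, -0.05 and 0.01 against WT in hen2-2, se-2 and the double mutant. ARR16, a response regulator of cytokinin signalling that is named here after its values were seen, had 1.75, 0.802 and 0.838 CPM in WT and 2.93, 2.18 and 2.43 in hen2-2 of RNA-seq 1, and 3.55, 4.57 and 3.45 CPM in WT and 6.39, 7.58 and 8.39 in hen2-2 of RNA-seq 2. It was higher in hen2-2 without overlap in both experiments, as were 11.2 and 7.06% of all genes, but did not pass the test (log2 1.14 ± 0.32, adjusted p = 0.183, and 0.95 ± 0.43, adjusted p = 0.948). The double mutant, which also carries hen2-2, had 1.09 to 5.51 CPM and overlapped WT (log2 -0.23 ± 0.44, adjusted p = 0.879). Its libraries were all below those of hen2-2 in RNA-seq 2, as for 7.86% of all genes. None of 5 cell division genes was called.

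Over the 12 libraries of RNA-seq 2, the 2 genes whose profile came closest to that of TCP4 were AT5G64600, annotated as an O-fucosyltransferase family protein, and GLN1;4, a glutamine synthetase. They differed from TCP4 by a root mean square of 0.352 and 0.365 in centred log2 CPM, where the median of 17508 genes compared was 0.959. For the loci of the precursors the closest profiles were those of AFR (0.741) and AT3G45210 (0.832) for MIR319a, AT2G22482 (0.701) and AT5G02295 (0.844) for MIR319b, and HTR11 (1.24) and HAI2 (1.40) for MIR319c. With counts as low as these the profiles of the precursors rest mostly on which libraries held any count.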

How the data were processed

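Stranded, rRNA-depleted libraries were used (18 samples). For RNA-seq 2 the authors trimmed reads, aligned them to TAIR10 with HISAT2 and deposited counts per gene made with StringTie, which derives them from coverage with a read length that is not given in the sources used here. For RNA-seq 1 the authors deposited expected counts (estimated reads) and TPM values per transcript, from Salmon per the labels. Tool versions are not given in the sources used here.

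Estimated reads were summed per gene and rounded. Genes were tested with edgeR 4.0.16 in R 4.3.3 (TMM, filter for low counts, two-sided quasi-likelihood F test, Benjamini-Hochberg adjustment over all genes, adjusted p under 0.05). All 12 libraries of RNA-seq 2 entered 1 fit. Alternatives used DESeq2 1.42.0, limma 3.58.1, other terms and filters, and each library left out. Exact tests used scipy 1.17.1. The members and lists were chosen with earlier results of these data known. Named are the 8 members, the CIN genes without a site, called list genes, the mutated genes and the closest profiles. Floors are 12 counts (RNA-seq 2), and 95% intervals cover counting error only.

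Libraries of the same replicate number deviated together in RNA-seq 1 (r = 0.585, 0.330 and 0.673). In RNA-seq 2 they did so in hen2-2 with WT (0.457, 0.311 and 0.267) and in the double mutant with se-2 (0.508, 0.116 and 0.192). In the other pairs of genotypes replicate 1 (0.3455 to 0.4829) and replicate 3 (0.1335 to 0.1767) deviated together, and replicate 2 did not (-0.01489 to 0.007128). Whether plants of a number were grown together is not stated. No library was left out of the reported fits.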

Additional observations from a re-analysis of the deposited data

How the results depend on the processing

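No member passed the test in RNA-seq 2 under any alternative run there. In RNA-seq 1 the count of 1 member called became 0 on the TPM values with limma, at a pseudocount of 1 and of 0.1, and was 0 to 1 with each library left out. MIR319c stayed called with DESeq2 (log2 2.35, adjusted p = 0.000225), with its size factors in edgeR and without the filter. With the replicate number as a block its log2 fold change was 2.37 (adjusted p = 0.0148), and the block changed no call of a member. Of the TCP genes, none of which passed the test, several signs turned. On log2(TPM + 1) and log2(TPM + 0.1) in RNA-seq 1, where the median of all genes moved from 0.02 to -0.04 and -0.12, TCP2 was at -0.11 and -0.14, TCP3 at -0.13 and -0.18, TCP4 at -0.020 and -0.066, and TCP24 at -0.049 and -0.068. With the block, TCP10 in hen2-2 of RNA-seq 2 was at 0.022 and TCP24 in the double mutant against se-2 at 0.0080. With a term for libraries over 100 M counts, chosen after seeing the data, TCP10 in hen2-2 was at 0.034, and in the double mutant against hen2-2 TCP2 was at -0.011 and TCP4 at 0.017. With 1 library left out, log2 fold changes in hen2-2 of RNA-seq 1 ranged from -0.29 to 0.48 for TCP3, -0.043 to 0.53 for TCP4 and -0.44 to 0.11 for TCP10. In RNA-seq 2 they ranged, for hen2-2, from -0.11 to 0.37 for TCP2, -0.14 to 0.86 for TCP3, -0.59 to 0.32 for TCP4 and -0.27 to 0.26 for TCP10. TCP3 ranged from -0.012 to 0.95 in se-2 and from -0.39 to 0.63 in the double mutant against WT. Against se-2, the double mutant ranged from -0.37 to 0.15 for TCP2, -0.76 to 0.044 for TCP3, -0.056 to 0.36 for TCP10 and -0.14 to 0.17 for TCP24, and against hen2-2 from -0.68 to 0.19 for TCP3 and -0.87 to 0.059 for TCP4. The cause of these changes was not tested. The precursors' low counts limit what could be detected: in RNA-seq 2 fewer than 12 counts were not told apart from 0.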
